A study of Mus musculus with 6 samples.

Results

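The 48 keratin-associated protein genes listed in the count table were taken as every gene whose symbol is Krtap followed by a digit, out of 14484 genes with a symbol. They are described by family (the number before the dash), by protein composition and by library. The annotation of the mouse genome (GENCODE M21, GRCm38) holds 58 Krtap genes, 57 of them protein coding, and the other genes were not analysed here. RNA was sequenced from skin of mice on a C57BL/6-129J background that carried Braf CA/+ and were Cre +. Nevi, benign growths of pigment cells, are named as the material in the series design. The 3 wild-type libraries (ATR WT) had the genotype ATR +/+, and the 3 mutant libraries (ATR mD/mD) had the genotype ATR fl/fl, in which part of the kinase domain of ATR, a kinase of the DNA replication stress response, is removed. The sources used here do not give the promoter that drives Cre, the age of the mice or their hair cycle stage, and every group carried the Braf allele and Cre. The labels do not state that the libraries within a group are from different animals, so p-values measure only the spread between these libraries, which may be technical.

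Keratin-associated proteins fill the space between keratin filaments in the hair shaft and are cross-linked to them, largely through cysteine disulfide bonds. They are made late in hair shaft differentiation, in the cortex and cuticle of growing follicles, and are little made in resting follicles. The family is grouped by amino acid content into high-sulfur and ultra-high-sulfur proteins, which are rich in cysteine, and high glycine-tyrosine proteins. Most of these genes are short, have a single exon and lie in clusters.

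The members lie on 4 chromosomes: 20 on chromosome 11, 21 on chromosome 16, 4 on chromosome 7 (family 5) and 3 on chromosome 10. A single exon was annotated for 44 of them. By the codons of the annotated coding sequence, 16 members had over 30% cysteine and were classed as ultra-high-sulfur (30.3% to 41.5%; families 4, 5, 10 and 17, with Krtap1-3 and Krtap9-1). A further 13 had at least 35% glycine plus tyrosine (47.5% to 69.2%; families 6, 8, 19, 21 and 22, with Krtap16-3). High-sulfur members, with at least 10% cysteine, numbered 13 (11.2% to 29.8%; families 2, 3, 11, 12, 26 and 31, with Krtap1-4, Krtap1-5, Krtap9-3 and Krtap16-1). The remaining 6, Krtap7-1, Krtap13-1, Krtap14, Krtap15, Krtap24-1 and Krtap27-1, met none of these limits (cysteine 4% to 9.52%).

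Promoter sequences from RefSeq (GRCm38.p6, 250 bases before to 50 bases after the annotated start) matched 43 of the 48 members. The letters TATAAA occurred on either strand in 35 of 43 (81.4%), against 13.6% of 32851 promoters of the same length. On the gene strand, between 45 and 15 bases before the start, they occurred in 26 of 43 (60.5%), against 2.14% of all promoters. CTTTGA, a core of LEF/TCF-type sites, occurred on either strand in 14 of 43 (32.6%, against 16.0%), and TTTATT, a HOX13-type core, in 9 of 43 (20.9%, against 19.6%). The E box letters CANNTG occurred in 39 of 43 (90.7%, against 72.3%). Members of a family share sequence, so these counts are not independent, and a match is a description of letters only. Shown here are the promoters of the neighbouring pair Krtap31-1 and Krtap31-2, of Krtap3-2, whose level differed least between libraries, of its neighbour Krtap3-3, and of Krtap8-1, the member with the most counts. Each is written 5′ to 3′ on the gene strand with TATAAA on that strand in capitals.
Krtap31-1 (chr11:99907670-99907969, plus strand): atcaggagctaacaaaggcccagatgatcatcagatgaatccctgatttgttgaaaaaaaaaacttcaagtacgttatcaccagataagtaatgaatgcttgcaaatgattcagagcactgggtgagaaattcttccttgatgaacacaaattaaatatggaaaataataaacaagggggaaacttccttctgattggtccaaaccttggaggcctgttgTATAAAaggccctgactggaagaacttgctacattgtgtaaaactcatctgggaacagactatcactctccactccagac
Krtap31-2 (chr11:99936041-99936340, plus strand): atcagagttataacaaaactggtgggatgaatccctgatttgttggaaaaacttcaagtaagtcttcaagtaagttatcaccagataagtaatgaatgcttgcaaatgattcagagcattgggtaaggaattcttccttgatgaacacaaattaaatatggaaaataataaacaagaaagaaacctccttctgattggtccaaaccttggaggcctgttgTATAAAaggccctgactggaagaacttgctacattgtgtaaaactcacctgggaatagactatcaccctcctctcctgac
Krtap3-2 (chr11:99556804-99557103, minus strand): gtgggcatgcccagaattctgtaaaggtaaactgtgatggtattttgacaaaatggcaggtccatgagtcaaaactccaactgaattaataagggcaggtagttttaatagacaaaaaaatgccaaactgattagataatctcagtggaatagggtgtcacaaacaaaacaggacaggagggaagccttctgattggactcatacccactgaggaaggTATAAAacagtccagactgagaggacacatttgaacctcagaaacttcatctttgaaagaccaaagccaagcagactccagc
Krtap3-3 (chr11:99550814-99551113, minus strand): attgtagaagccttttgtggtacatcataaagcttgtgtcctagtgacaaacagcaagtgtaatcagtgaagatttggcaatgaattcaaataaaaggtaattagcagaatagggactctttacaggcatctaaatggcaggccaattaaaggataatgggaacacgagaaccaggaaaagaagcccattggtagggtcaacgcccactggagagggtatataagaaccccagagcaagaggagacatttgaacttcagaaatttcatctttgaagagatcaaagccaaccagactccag
Krtap8-1 (chr16:89487903-89488202, minus strand): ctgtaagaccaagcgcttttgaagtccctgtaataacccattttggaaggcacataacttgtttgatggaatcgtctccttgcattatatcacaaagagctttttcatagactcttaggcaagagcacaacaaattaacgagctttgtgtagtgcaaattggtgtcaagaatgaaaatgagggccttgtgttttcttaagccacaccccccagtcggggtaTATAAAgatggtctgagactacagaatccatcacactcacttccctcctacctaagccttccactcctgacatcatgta
The nearest TATAAA began 30 bases before the start in both Krtap31 genes, 32 bases before it in Krtap3-2 and 29 bases before it in Krtap8-1, while the Krtap3-3 window held none on either strand. The Krtap31-1 and Krtap31-2 promoters were identical at 268 of 309 aligned positions (86.7%), against 59.1% for Krtap3-2 and Krtap3-3.

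Gene counts per library lay between 34723600 and 46847751. Atr was counted at 17.6, 24.5 and 24.2 CPM (TMM-scaled counts relative to library size) in wild-type libraries 1, 2 and 3 and at 20.8, 22.2 and 24.8 CPM in mutant libraries 1, 2 and 3; a count over the whole gene does not check a deletion of part of it. Skin markers were present in all libraries: the 5 measured of 6 epidermal genes (Flg was not in the table) summed to between 10446 and 17998 CPM. Some member counts are uncertain: 13 members share over 25% of their 50-base stretches with another transcript, up to 59.9% in Krtap5-1, and 6 members overlap another gene (Krtap10-4, Krtap10-10, Krtap12-1, Krtap24-1, Krtap14 and Krtap15). The kit does not mark strand, so reads of overlapping genes cannot be told apart.

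Krtap transcripts were abundant in libraries 2 and 3 of ATR WT and in library 3 of ATR mD/mD, called Krtap-rich below and listed in that order. They were scarce in library 1 of ATR WT and libraries 1 and 2 of ATR mD/mD, called Krtap-poor and listed in that order. These names describe measured levels and are not groups of the study. Summed over the 48 members they made up 976, 160097 and 227754 counts in wild-type libraries 1, 2 and 3, and 756, 3284 and 158776 counts in mutant libraries 1, 2 and 3. As a percent of all gene counts this was 0.00248%, 0.380% and 0.486% in the wild type and 0.00218%, 0.00852% and 0.445% in the mutants. The mean level of 15 measured hair shaft keratins, the filament proteins that keratin-associated proteins bind, was -0.0012, 5.86 and 6.21 log2 CPM in the wild type and -1.62, 0.79 and 6.14 log2 CPM in the mutants. All 48 members had the same 3 highest libraries as this mean, against 19.6% of all genes. No gene in the count table had a total under 171 counts. A member near 0 in the Krtap-poor libraries reaches such a total only through the Krtap-rich ones. The count of 48 was thus partly fixed by which genes are listed, and the share of all genes is not a like comparison. Differences within this coarse level are given by member below. In bulk skin, fewer cells of a type and less RNA per cell cannot be told apart.

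**Figure D1:**
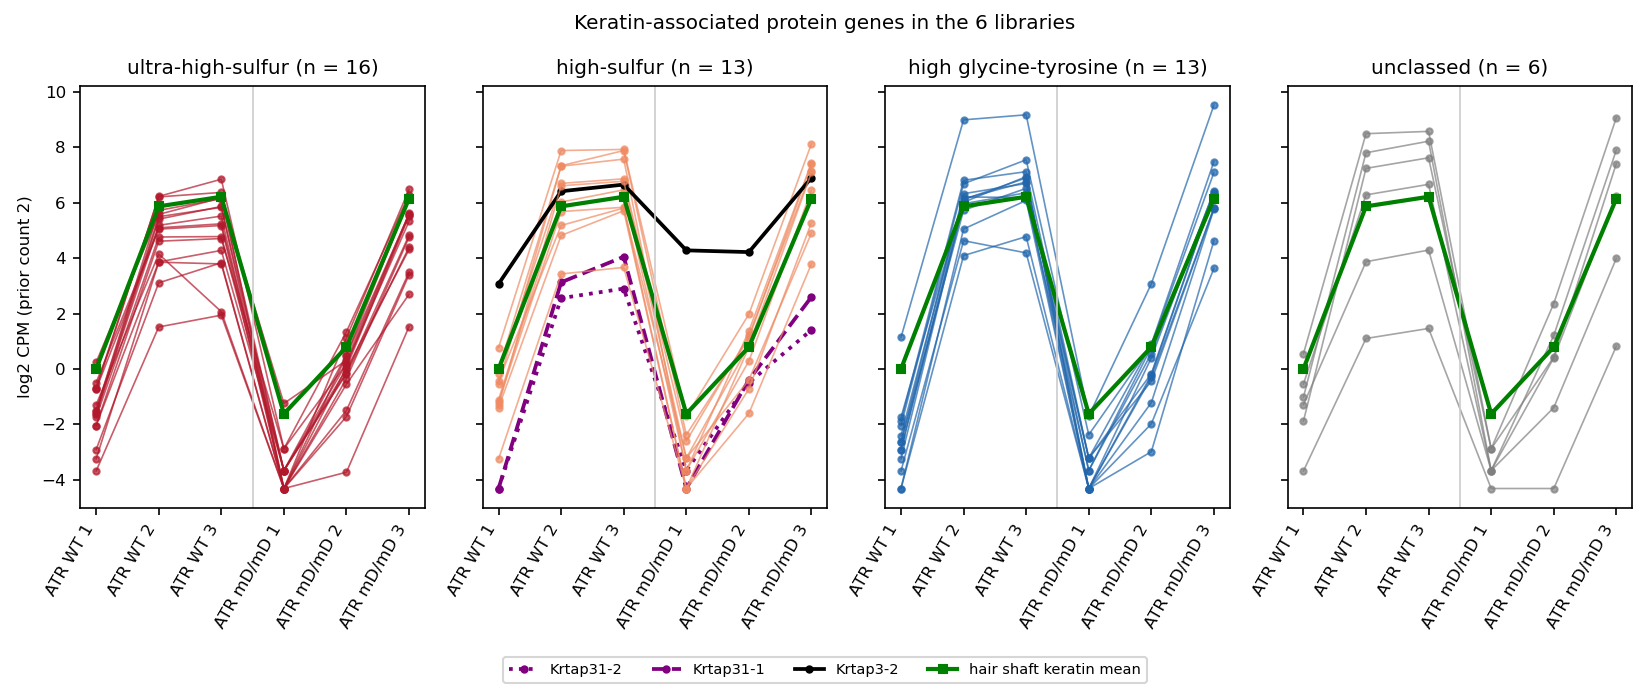
Level of each member in the 6 libraries, in log2 CPM, with one panel for each protein class and the hair shaft keratin mean in green in all. The Krtap-rich libraries are high in every class; Krtap3-2 keeps the highest level in the other libraries, at 8.33 to 19.3 CPM.

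In the libraries with little Krtap RNA, many members were at the limit of counting. In ATR mD/mD 1, 19 of 48 members had 0 counts and 41 had 3 or fewer, and the median was 1 count. ATR WT 1 had 4 members at 0, 13 at 3 or fewer and a median of 10 counts. ATR mD/mD 2 had 1 member at 0 (Krtap27-1), 3 at 3 or fewer and a median of 43 counts. In the Krtap-poor libraries a count of 0 allows up to 3 counts, which is 0.0827, 0.0858 and 0.0762 CPM. The 3 libraries were themselves ordered: 45 of 48 members were higher in ATR mD/mD 2 than in ATR WT 1, and 43 of 48 were higher in ATR WT 1 than in ATR mD/mD 1. Of the hair shaft keratins, 11 of 15 were higher in ATR mD/mD 2 than in ATR WT 1, and 15 of 15 were higher in ATR WT 1 than in ATR mD/mD 1.

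High glycine-tyrosine members include the transcript with the most counts of the family. Krtap8-1 (chromosome 16, 89487379 to 89487952, minus strand) had 78, 21979 and 28005 counts in wild-type libraries 1, 2 and 3 and 9, 329 and 25484 counts in mutant libraries 1, 2 and 3. Its level was 360 ± 312 CPM in the wild type and 246 ± 419 CPM in the mutants (SD, n = 3), so the SD within a group was near or above the mean. Per kilobase of exon it was also the highest member in ATR WT 3, at 999 CPM per kb, followed by Krtap7-1 at 610 and Krtap22-2 at 379. Krtap6-5 had 7, 4446 and 9095 counts in the wild type and 5, 69 and 4736 counts in the mutants. Krtap16-3 had 2, 2800 and 5978 counts against 0, 32 and 2758, one of the widest spans of the family. Over the 13 members of this class the highest count in ATR mD/mD 1 was 9, and the lowest in the Krtap-rich libraries was 737, 886 and 429. The groups overlapped in every one.

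High-sulfur members include both the member that varied least between libraries and the Krtap31 pair. Krtap11-1 had the most counts of them in the Krtap-rich libraries, with 60, 10211 and 11791 counts in the wild type and 9, 153 and 9748 counts in the mutants. Krtap1-5 had 23, 6981 and 11463 counts against 5, 83 and 5892. Krtap3-1 had 34, 6900 and 9256 counts against 1, 100 and 6034. In each of the 3, the library with the lowest value was ATR mD/mD 1. The members of the class with the fewest counts in the Krtap-rich libraries were Krtap31-2, Krtap31-1 and Krtap12-1.

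Ultra-high-sulfur members had between 122 and 3244 counts in ATR WT 2, and none had more than 13 counts in ATR mD/mD 1. Krtap4-1 had 20, 3244 and 5596 counts in the wild type and 3, 98 and 2719 counts in the mutants. Krtap4-7 had 21, 3201 and 4028 counts against 0, 84 and 3111. Krtap17-1 had 41, 2067 and 3515 counts against 13, 47 and 1699, the most of the class in ATR mD/mD 1. The fewest counts of the class in the Krtap-rich libraries were those of Krtap5-1, with 1, 122 and 185 counts against 0, 1 and 99. Among the 6 members outside these classes, Krtap7-1 had the most counts, with 51, 15552 and 18513 counts in the wild type and 3, 200 and 18678 counts in the mutants. Krtap27-1 had the fewest, with 1, 91 and 132 counts against 0, 0 and 60.

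No member differed between the genotypes by the test, and the ranges of the groups overlapped in all 48. By edgeR's quasi-likelihood test with Benjamini-Hochberg adjustment over 14484 genes, 0 of 48 members passed an adjusted p under 0.05, against 0.0483% of all genes; at an unadjusted p under 0.05, 0 of 48 passed, against 1.66%. DESeq2 called 0 of 48 (0.27% of the genes it tested), and 0 of 48 at an unadjusted p under 0.05, and limma-voom gave 0 of 48 by either limit. The share of all genes is not given for the unadjusted DESeq2 count or for limma-voom, so those counts have no background here. Groups did not overlap in 0 of 48 members, against 4.84% of genes. The log2 fold change of ATR mD/mD against ATR WT was below 0 in 48 of 48 members (48% of genes) with a median of -1.08 (0.0070 over all genes) and a range of -2.01 (Krtap31-2) to -0.30 (Krtap4-9). With limma-voom the median was -3.002. Of the Krtap-rich libraries 2 are wild type and 1 is mutant, and this imbalance and the genotype cannot be told apart. Standard errors of 1.04 to 2.44 were of the size of the differences, and the lowest unadjusted p was 0.280, with an adjusted p of 0.9999 (edgeR). Leaving out ATR mD/mD 3, which leaves the mutant group with 2 libraries poor in Krtap RNA, moved the median to -6.15, and 31 of 48 members then had an unadjusted p under 0.05 (7.01% of genes) but 0 an adjusted one (lowest 0.708, edgeR). The median was -0.39 without ATR WT 3, with 44 of 48 below 0, -0.49 without ATR mD/mD 1 (41 of 48), -0.53 without ATR mD/mD 2 (42 of 48) and -1.65 without ATR WT 1. In the authors' deposited table, the log2 fold change of Krtap31-2 was -2.004 with a p-value of 0.127, and the adjusted p-value was 1 for all 48 members.

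**Figure D2:**
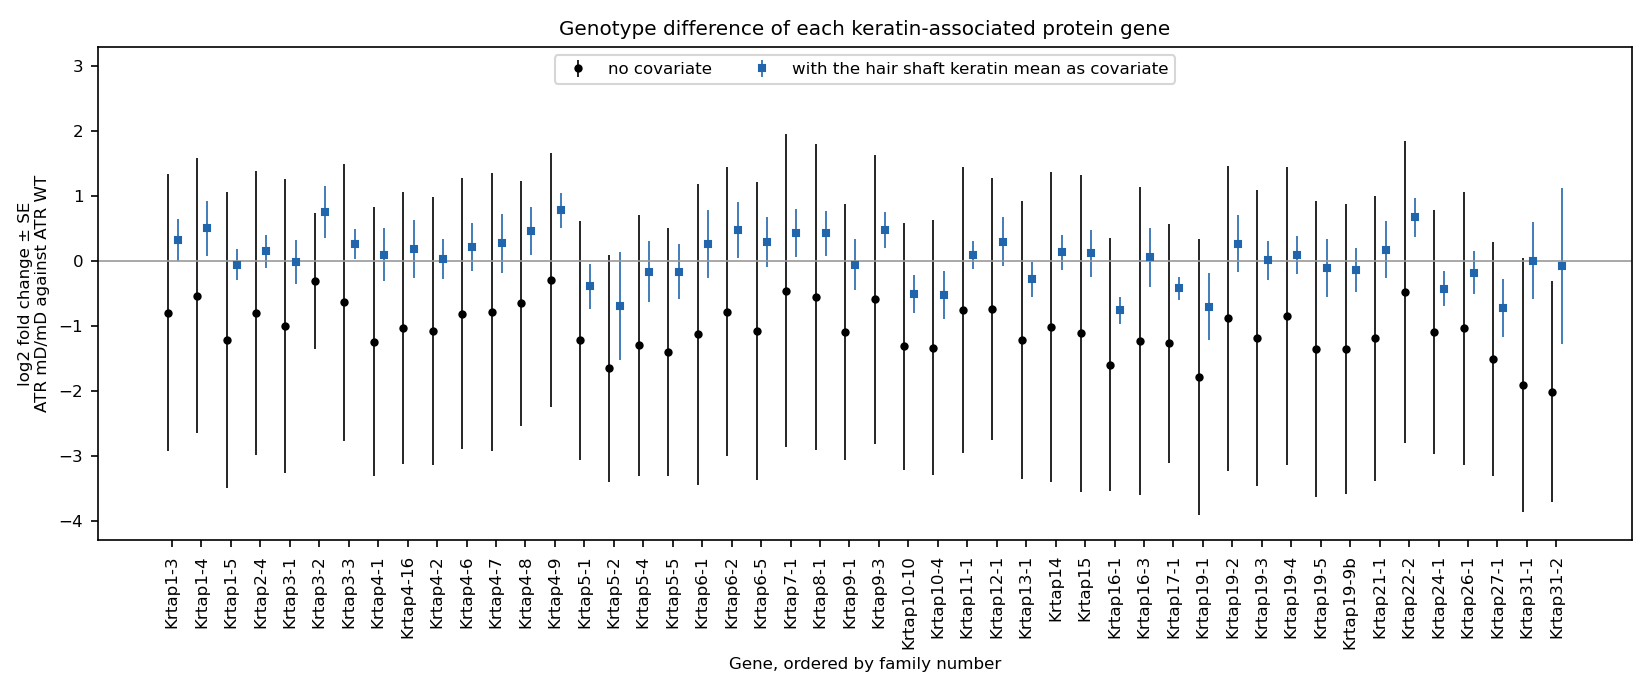
Log2 fold change of ATR mD/mD against ATR WT with its SE for the 48 members, ordered by family number, from edgeR without a covariate (black) and with the hair shaft keratin mean as covariate (blue). All black points lie below 0, between -2.01 and -0.30, while 19 of 48 blue points do.

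With the mean level of the hair shaft keratins as a covariate in the same edgeR fit, 19 of 48 members lay below 0 (48.1% of genes) and the median was 0.10. An unadjusted p under 0.05 was reached by 2 of 48 members (4.03% of genes) and an adjusted one by 0 (0.0759% of genes; lowest 0.9995, edgeR). These 2, named because there were only 2, were Krtap16-1 at -0.76 (SE 0.212, unadjusted p = 0.010 in edgeR) and Krtap4-9 at 0.78 (SE 0.273, unadjusted p = 0.025 in edgeR). By family, 0 of 7 members of family 4 and 0 of 3 of family 6 lay below 0 in this fit, and 4 of 4 of family 5 and 2 of 2 of family 10. The other families with several members were split: 3 of 6 in family 19, 1 of 3 in families 1 and 3, and 1 of 2 in families 9, 16 and 31. Both family 10 genes share sequence, so their values are not independent. With 6 libraries this fit leaves few degrees of freedom, and the covariate is itself a measured outcome.

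Krtap3-2, a high-sulfur gene (chromosome 11, 99555823 to 99556853, minus strand), was the member whose level differed least between libraries. It had 302, 3689 and 4896 counts in wild-type libraries 1, 2 and 3 and 676, 729 and 4154 counts in mutant libraries 1, 2 and 3, or 8.33, 84.8 and 100.2 CPM against 19.3, 18.5 and 118.9 CPM. The range over libraries was 3.83 on the log2 CPM scale, the smallest of the 48, whose median range was 9.81. Of all Krtap counts it made up 30.9%, 89.4% and 22.2% in the Krtap-poor libraries (exact Clopper-Pearson 95% intervals 28.1% to 33.9%, 87.0% to 91.5% and 20.8% to 23.7%), but 2.15% to 2.62% in the other libraries. Intervals here cover counting error only, and copies made by PCR are not independent molecules. Without Krtap3-2 the family had 674, 80 and 2555 counts in these libraries. The genotype difference was -0.30 (SE 1.04, edgeR), and it was 0.16 without ATR WT 3 and 0.10 without either ATR mD/mD 1 or ATR mD/mD 2.

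The neighbours of Krtap3-2 in the same cluster did not share this pattern in their counts. Krtap3-3 had 30, 4489 and 5658 counts in the wild type and 4, 89 and 4878 counts in the mutants, and Krtap3-1 had a single count in ATR mD/mD 1, where Krtap3-2 had 676. Krtap3-2 shares 28.9% of its 50-base stretches with other transcripts and Krtap3-3 shares 41.3%, so the split of reads between these 2 is uncertain. A hair shaft keratin of the cuticle, Krt32, was also well above 0 in every library, with 16.2, 49.1 and 70.7 CPM in the wild type and 15.5, 13.3 and 64.1 CPM in the mutants. In ATR mD/mD 1, Krtap3-2 stood at 16.3% of its level in ATR mD/mD 3 (counting interval 14.97% to 17.64%) and Krt32 at 24.2%, while the median of the 48 members was 0.0335%, or 0.156% with members under 3 counts set to 3.

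**Figure D3:**
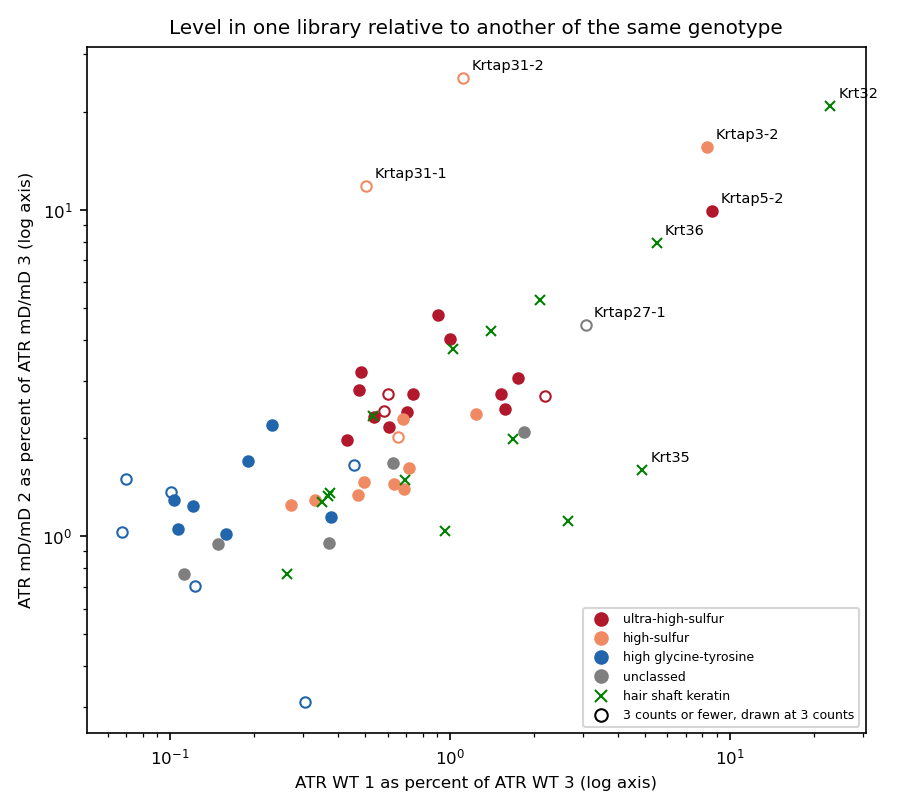
Each point is a member or a hair shaft keratin, placed by its level in ATR WT 1 as a percent of ATR WT 3 and its level in ATR mD/mD 2 as a percent of ATR mD/mD 3, on log axes; open symbols have 3 counts or fewer and are drawn at 3 counts. Krtap3-2, Krtap5-2 and Krt32 are high on both axes, and the Krtap31 pair is high on the vertical one, at 11.8% and 25.3%.

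Krtap31-1 (chromosome 11, 99907920 to 99908892, plus strand) and Krtap31-2 (99936291 to 99937225, plus strand) are high-sulfur genes of 177 codons each with 25.4% cysteine. Krtap31-1 had 0, 377 and 805 counts in wild-type libraries 1, 2 and 3 and 0, 28 and 210 counts in mutant libraries 1, 2 and 3. Krtap31-2 had 0, 253 and 362 counts against 1, 26 and 91. Levels were 8.38 ± 8.24 against 2.24 ± 3.28 CPM for Krtap31-1 and 4.41 ± 3.90 against 1.10 ± 1.34 CPM for Krtap31-2 (SD, n = 3), and the groups overlapped. Their genotype differences were -1.91 (SE 1.95) and -2.01 (SE 1.70) on the log2 scale, the lowest of the family, with unadjusted p of 0.364 and 0.280 (edgeR). With the hair shaft keratin covariate they were 0.01 (SE 0.597) and -0.07 (SE 1.20).

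The Krtap31 pair, Krtap3-2 and Krtap5-2 kept the highest relative levels of the 48 members in ATR mD/mD 2. In ATR mD/mD 2, where the median member stood at 1.68% of its level in ATR mD/mD 3 (1.99% with members under 3 counts set to 3), Krtap31-2 stood at 25.3% (counting interval 15.7% to 39.6%) and Krtap31-1 at 11.8% (7.67% to 17.6%). Krtap3-2 stood at 15.6% (14.4% to 16.8%) and Krtap5-2 at 9.90% (6.27% to 15%). The intervals of Krtap31-1, Krtap3-2 and Krtap5-2 overlapped one another. That of Krtap31-2 overlapped those of Krtap31-1 and Krtap3-2 and lay above that of Krtap5-2 only. In ATR WT 1 both Krtap31 genes were at 0 counts. Their counting intervals reached up to 0.619% (Krtap31-1) and 1.38% (Krtap31-2) of the level in ATR WT 3. The median member stood at 0.473% of its level there, or 0.518% with members under 3 counts set to 3. The Krtap31 pair held 0 of 976 Krtap counts in ATR WT 1 (exact interval 0% to 0.377%). Krtap3-2 made up 30.9% of those counts but 2.15% to 2.62% in the Krtap-rich libraries. This limit therefore cannot be set directly against the shares of the pair in those libraries. The pair held 1.64% of Krtap counts in ATR mD/mD 2 (exact interval 1.24% to 2.14%), against 0.394%, 0.512% and 0.190% in the Krtap-rich libraries. In ATR mD/mD 3 itself, Krtap31-2 lay 1.14 and 1.49 below ATR WT 2 and ATR WT 3 on the log2 CPM scale, and Krtap31-1 lay 0.52 and 1.45 below them. The transcripts share stretches of 50 bases with each other or with Gm11565 that make up 39.5% and 41.5% of each, so the split of reads between them is uncertain.

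Over 14436 genes outside the family, the patterns most like the mean of the Krtap31 pair across the 6 libraries (Pearson correlation of log2 CPM, a description over 6 points that share libraries) were those of Src (r = 0.997), Gm11565 (0.997), Phldb2 (0.992), Gpr173 (0.992) and Ttc30a1 (0.988). The mean of the hair shaft keratins had r = 0.947. Gm11565 is a protein coding gene that lies between the 2 Krtap31 genes (chromosome 11, 99914751 to 99915671, plus strand), with 0, 815 and 2117 counts in the wild type and 0, 41 and 560 counts in the mutants. It shares 10 and 13 stretches of 50 bases with Krtap31-1 and Krtap31-2. Src, which encodes a tyrosine kinase, spanned only 1426 to 2523 counts, so its likeness is in the order and spacing of the libraries and not in the size of the change.

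Krtap5-2, an ultra-high-sulfur gene on chromosome 7 (142174535 to 142176005, minus strand), divided the ATR WT libraries in another way. It had 13, 766 and 202 counts in wild-type libraries 1, 2 and 3 and 0, 25 and 224 counts in mutant libraries 1, 2 and 3, or 0.358, 17.6 and 4.13 CPM against 0, 0.635 and 6.41 CPM. Its ATR WT 2 value was the highest, and ATR WT 3 lay below ATR mD/mD 3. Krtap5-2 shares 28.7% of its 50-base stretches with other transcripts, mostly with Gm4553, so its counts are uncertain. Highest values fell in ATR WT 2 in 3 members only; a further 31 peaked in ATR WT 3, and ATR mD/mD 3 was the highest library of the remaining 14. The genotype difference of Krtap5-2 was -1.65 (SE 1.75, edgeR), and it was 0.06 without ATR WT 2, the library that held most of its counts. Krtap19-1, of the high glycine-tyrosine class, also peaked in ATR WT 2, with 1, 1071 and 886 counts in the wild type and 0, 8 and 429 counts in the mutants.

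Among the 3 libraries rich in Krtap RNA, members did not keep a single order. Against ATR WT 2 and ATR WT 3, ATR mD/mD 3 was above both in 14 members, between them in 23 and below both in 11. The hair shaft keratins fell 9 above, 3 between and 3 below, the last being Krt40, Krt82 and Krt83. Family 4 had 4 of 7 members above both and 0 below, while both measured members of family 10 and both of family 31 lay below. Krtap4-9 was 0.72 and 0.62 higher in ATR mD/mD 3 than in ATR WT 2 and ATR WT 3 on the log2 CPM scale, Krtap22-2 was 0.67 and 0.36 higher, and Krtap8-1 was 0.53 and 0.35 higher. Krtap19-1 differed by -1.001 and -0.56, and Krtap16-1 by -0.27 and -0.90. This compares single libraries and has no replicate check.

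**Figure D4:**
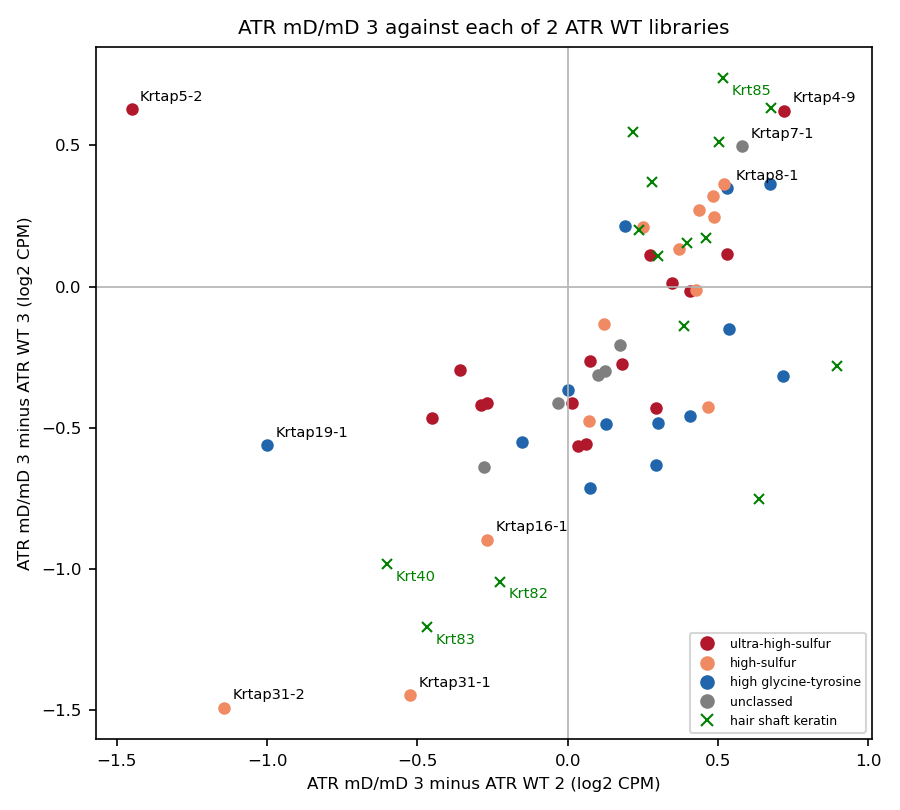
Each point is a member or a hair shaft keratin, placed by the difference of its log2 CPM in ATR mD/mD 3 from ATR WT 2 (horizontal) and from ATR WT 3 (vertical). Krtap31-2 lies at -1.14 and -1.49 and Krtap4-9 at 0.72 and 0.62.

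The make-up of the Krtap pool also varied between libraries. With Krtap3-2 left aside, high glycine-tyrosine members held 35.2%, 37.4% and 37.3% of Krtap counts in the Krtap-rich libraries. They held 18.4%, 27.5% and 30.9% in the Krtap-poor ones (exact intervals 15.5% to 21.5%, 18.1% to 38.6% and 29.1% to 32.7%). Ultra-high-sulfur members held 15.2%, 14.9% and 13.4% in the first 3 and 31.2%, 30% and 25.1% in the others (27.7% to 34.8%, 20.3% to 41.3% and 23.5% to 26.9%). Each of these last 3 intervals lies above each of the first 3 shares, in both genotypes. ATR mD/mD 1 rests on 80 counts, and Krtap17-1 alone gave 13 of its 24 ultra-high-sulfur counts. The pattern also depends on leaving Krtap3-2 aside. With Krtap3-2 kept in, ultra-high-sulfur members held 21.5%, 3.17% and 19.5% in the Krtap-poor libraries. They then held 14.9%, 14.6% and 13.1% in the Krtap-rich ones.

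**Figure D5:**
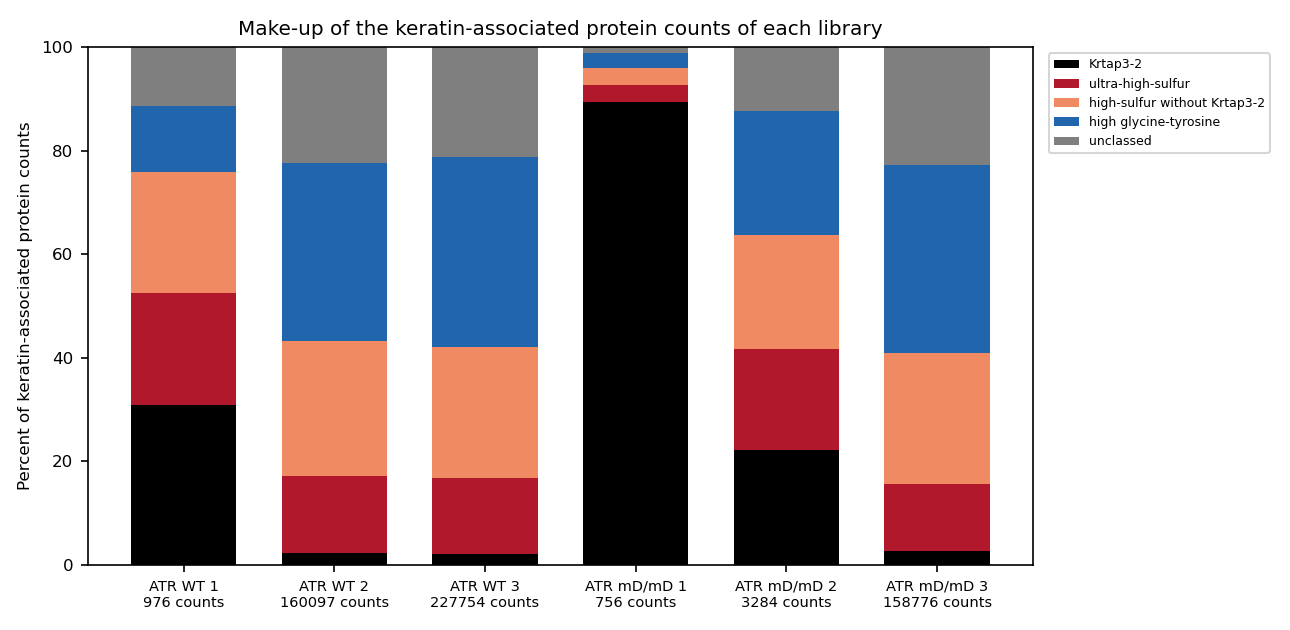
Percent of all Krtap counts held by Krtap3-2 and by each protein class in the 6 libraries, as stacked bars, with the number of counts under each bar. Krtap3-2 (black) holds 30.9%, 89.4% and 22.2% in the Krtap-poor libraries.

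Other genes of the hair programme were taken from lists by role. Between genotypes, 0 members of any list passed an adjusted p under 0.05 (edgeR), against 0.0483% of all genes. At an unadjusted p under 0.05, which 1.66% of all genes passed, only Tgm5, a transglutaminase of the cross-linking list, did so. Its log2 fold change was -0.85 (SE 0.137, unadjusted p = 0.000578, adjusted p = 0.493 in edgeR). Of 8 inner root sheath genes, which mould the growing shaft, 8 lay below 0 with a median log2 fold change of -1.11, and Krt71 was at 49.1, 3165 and 3229 CPM in the wild type and 2.1, 48.3 and 3023 CPM in the mutants. Of 10 regulators of the hair matrix, 9 lay below 0 (median -0.33). Foxn1, a transcription factor needed for hair shaft keratin expression, was at 8.05, 26.4 and 30.4 CPM against 6.69, 8.73 and 33.5 CPM. Hoxc13, another such factor, was at 8.33, 58.1 and 67.2 CPM against 5.63, 7.29 and 64.7 CPM. Foxn1 and Hoxc13 differed less between libraries than most Krtap genes. The 2 regulators with the highest mean CPM were Gata3 and Dlx3. Dlx3 was at 31.0, 147 and 143 CPM against 18.7, 22.9 and 192 CPM. Gata3 went the other way, at 336, 237 and 201 CPM against 336, 300 and 255 CPM, lower in each Krtap-rich library. Foxq1 and Ovol1 did not separate the Krtap-rich from the Krtap-poor libraries. Of 8 genes on the cross-linking list 8 lay below 0 (median -0.29), and of 6 cuticle genes 6 (median -0.92), against 48% of all genes. These lists are not separate: Krt32, Krt82, Krt39 and Krt40 of the cuticle list are also hair shaft keratins. Padi3 is on both the cuticle and the cross-linking list.

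Summed markers of several other cell types differed between libraries along with Krtap RNA. The 7 melanocyte genes summed to 142, 789 and 508 CPM in the wild type and 81.7, 93.4 and 805 CPM in the mutants, higher in the Krtap-rich libraries, with 7 of 7 log2 fold changes of the genotypes below 0 (median -0.58). The 5 skeletal muscle genes were lower in the Krtap-rich libraries, at 23587, 8683 and 5327 CPM against 14248, 15447 and 5177 CPM, and 5 of 5 log2 fold changes were also below 0 (median -0.08). The 5 measured genes of the interfollicular epidermis summed to 17998, 10446 and 12210 CPM against 13847, 16947 and 12693 CPM, with 1 of 5 below 0. The 5 follicle stem cell genes summed to 5273, 3397 and 3136 CPM against 5033, 5134 and 4020 CPM, with 4 of 5 below 0. Both of these sums were lower in each Krtap-rich library than in each Krtap-poor one, but not every gene was. Krt15 made up most of the stem cell sum, and Lgr5, Sox9 and Lhx2 were higher in each Krtap-rich library. Lgr5 was at 19.2, 36.5 and 59.2 CPM in the wild type and 16.2, 18.3 and 48.8 CPM in the mutants. Cd34 of this list and Krt5, Krt14 and Krt1 of the epidermal list did not separate these libraries. The 5 sebaceous gland genes summed to between 5274 and 6222 CPM in the wild type and between 4466 and 8677 CPM in the mutants, and the 5 adipocyte genes to between 1984 and 2693 and between 2181 and 3574 CPM. The 8 inner root sheath genes summed to between 179 and 11600 CPM in the wild type and between 14.2 and 11078 CPM in the mutants. The part of these cells in the Krtap differences was not tested.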

How the data were processed

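RNA from 6 skin samples was sequenced as poly(A)-selected TruSeq RNA v2 libraries, which do not keep strand, per the labels' protocols. FastQC, TopHat2 2.0.12 and edgeR were used with mm10, per the submitters' processing notes; no source used here names the counter, annotation or low-count filter. The authors deposited whole-number read counts per gene, not normalized. Their deposited table also lists log2 fold changes, log2 CPM, p-values and adjusted p-values, per the file headers. Of 14486 rows, 2 name no gene (4.93% to 5.72% of counts) and were left out.

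Groups came from the titles. Counts were TMM-scaled (factors 0.923 to 1.04) and tested over 14484 genes with edgeR 4.0.16 (quasi-likelihood, filterByExpr, R 4.3.3); each SE was the size of the log2 fold change over the square root of F. Log2 CPM used a prior count of 2. DESeq2 1.42.0, limma-voom 3.58.1, RLE size factors, other filters, a replicate block, the hair shaft keratin covariate, other prior counts and class limits, and leaving out each library were alternatives. Scripts were tested on simulated counts. Libraries of a group differed beyond sampling noise (chi-square per degree of freedom at least 55.3).

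Members and gene lists were chosen with earlier results of these data known. Genes named were Krtap31-1 and Krtap31-2, the 4 highest members by mean CPM of each protein class, the 5 with the lowest p, up to 6 with the lowest rank correlation to the hair shaft keratin mean, the 3 with the largest and smallest range, and the 2 highest of other lists. Krtap16-1, Krtap4-9, Krt32, Krt40, Krt82, Krt83, Foxn1, Hoxc13 and Tgm5 lie outside it and were picked once values were known; not every gene the rule took is printed. Protein classes were planned from RefSeq proteins and were taken from GENCODE M21 coding sequences instead. Positions are GENCODE M21 (GRCm38, the same build as mm10); promoters are RefSeq.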

Additional observations from a re-analysis of the deposited data

How the results depend on the processing

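The count of Krtap members past an adjusted p under 0.05 was 0 with every alternative run and without each library in turn, and the 3 highest libraries were those of the hair shaft keratin mean in 48 of 48 members with either other prior count and with RLE size factors. Other settings moved values. All genes called numbered 7, against 39 with DESeq2, 11 with the hair shaft keratin covariate and 4 to 10 when a library was left out. The median log2 fold change of the members, -1.08, was -3.002 with limma-voom, 0.10 with the covariate and -6.15 to -0.39 when a library was left out. With the limits at 25% cysteine and 30% glycine plus tyrosine, the high-sulfur class held 6 members in place of 13. With the covariate the sign turned for 16 of 26 named members: Krtap31-1 (0.0093), Krtap8-1 (0.43), Krtap22-2 (0.68), Krtap6-5 (0.30), Krtap6-1 (0.27), Krtap11-1 (0.10), Krtap3-3 (0.26), Krtap4-1 (0.10), Krtap4-7 (0.27), Krtap1-3 (0.33), Krtap7-1 (0.43), Krtap15 (0.12), Krtap14 (0.14), Krtap3-2 (0.76), Krtap6-2 (0.48) and Krtap16-3 (0.059). Leaving out a library gave Krtap8-1 -6.38 to 0.038, Krtap22-2 -6.45 to 0.11, Krtap7-1 -6.56 to 0.14, Krtap5-2 -4.49 to 0.056 and Krtap3-2 -1.77 to 0.16. The cause was not tested. RLE size factors, DESeq2, limma-voom, the filters and the replicate block left the sign of the 26 named members as it was.

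With the replicate number as a block, 6 genes and 0 members were called and the median of the members was -2.73, with 7 of 48 members at an unadjusted p under 0.05 (2.13% of genes). Whether the numbers pair the samples is not known. Deviations of same-numbered libraries over all genes correlated at 0.633, -0.509 and 0.573. These correlations were positive where both libraries were Krtap-rich or both Krtap-poor and negative otherwise. They therefore cannot show a pairing or its absence. Depth limits the members in ATR mD/mD 1, where 41 of 48 had 3 counts or fewer.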
